A study of Homo sapiens with 2 samples.

Results

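Mitochondrial ribosomal protein genes were taken from the count table as the protein-coding rows named MRPL or MRPS followed by a digit. There were 78 of them among the 44591 genes of the table. They were compared between 2 RNA-seq libraries of the human cutaneous squamous cell carcinoma line HSC-1. One library came from cells transfected with control siRNA (siNC) and the other from cells transfected with siRNA against the long non-coding RNA LINP1 (siLINP1). Per the labels, both were transfected at about 70% confluency, kept for 6 h without serum and then for 24 h in medium with 10% serum, and total RNA was treated with DNase I. The line, the transfection reagent and the medium changes were common to both groups, and the comparison asked which genes differ after LINP1 knockdown. With 1 library per condition there was no replicate spread and no test. Each log2 fold change of siLINP1 over siNC below carries a 95% interval that covers the error of counting reads only.

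The mitochondrial ribosome is built inside mitochondria from ribosomal RNAs that mitochondrial DNA encodes and from proteins that the nucleus encodes and the cytosol makes. It translates the few mRNAs of mitochondrial DNA, all of which encode membrane subunits of the respiratory chain and ATP synthase. Some of its proteins descend from bacterial ribosomal proteins and others exist only in mitochondrial ribosomes. In names, MRPL marks proteins of the large subunit and MRPS those of the small one, although MRPS30 and MRPS18A were later found in the large subunit, and MRPS36 was later assigned to the 2-oxoglutarate dehydrogenase complex.

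The siNC library held 18829544 reads and the siLINP1 library 15383081, which gave median-of-ratios size factors of 1.08 and 0.930. LINP1 had 167 reads in siNC and 23 in siLINP1, a log2 fold change of -2.65 (-3.35 to -2.02), the direction that the labels give. Of 15 squamous keratinocyte markers, 7 lay under 1 RPKM (reads scaled by gene length and by the library total) in both libraries and none had 0 reads, with a summed level of 153.3 RPKM in siNC and 154.4 in siLINP1. Among them KRT5 (32 and 24 reads), TP63 (6 and 8) and CDH1 (14 and 3) were near absent, while ITGB4 and ITGA6 were well read. Of 7 mesenchymal markers, 1 lay under 1 RPKM in both, and their summed level was 2060 RPKM in siNC and 1690 in siLINP1, most of it VIM with 61097 and 41992 reads. The part of these levels in the results below was not tested.

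Mitochondrial ribosomal protein mRNAs were slightly less abundant in siLINP1. The median log2 fold change of the 78 genes was -0.16, against -0.02 over the 19840 genes with at least 10 reads in both libraries together, and also -0.02 over the 7999 genes whose summed reads lay in the members' own range of 517 to 4781. All 78 members passed the minimum of 10 reads. The scaled count was lower in siLINP1 for 65 members and higher for 13. Their central range was narrow, with quartiles of -0.32 and -0.03, and the extremes were MRPL55 at -0.73 and MRPS30 at 0.36. Neither comparison set matched the members in gene length, with medians of 2709 and 3545 bases against 1349. With a trend of fold change with gene length removed, the members' median was -0.04, with 43 lower and 35 higher. In bulk RNA, fewer cells of a type and less RNA per cell cannot be told apart, and a size factor sets every value relative to the other genes.

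Only MRPL55 and MRPL34 were lower by more than 1.5-fold, and 0 members were higher by that fold. Among all genes with at least 10 reads, 13% were lower and 14.4% higher by more than 1.5-fold, and among the genes in the members' read range 4.6% and 6.91% were. The whole counting interval lay below no change for 43 members (55.1%) and above it for 3 (3.85%), and it held no change for the other 32. The same shares over all genes were 25.6% below and 23% above, and over genes in the same read range 34.5% below and 31.7% above. The share of members beyond 1.5-fold was thus no larger than that of genes with similar read numbers, while the share with the interval below no change was larger and the share above it smaller, with no test behind either.

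Total reads on the 78 genes were 88861 in siNC (0.472% of the library) and 66993 in siLINP1 (0.435%), a summed log2 fold change of -0.20 (-0.21 to -0.18). The split of directions depended on the scaling, since under plain total-count scaling 49 members were lower and 29 higher, and the interval lay below no change for 30 and above it for 9. That scaling raised the median of all genes by 0.0822, and the members' median then was -0.08. The spread of the log2 fold changes among members had an SD of 0.214, compared with a median counting SD of 0.0713 for a single member. The genes of the family therefore differed from one another by more than the error of counting, although the spread between cultures is unknown.

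**Figure D1:**
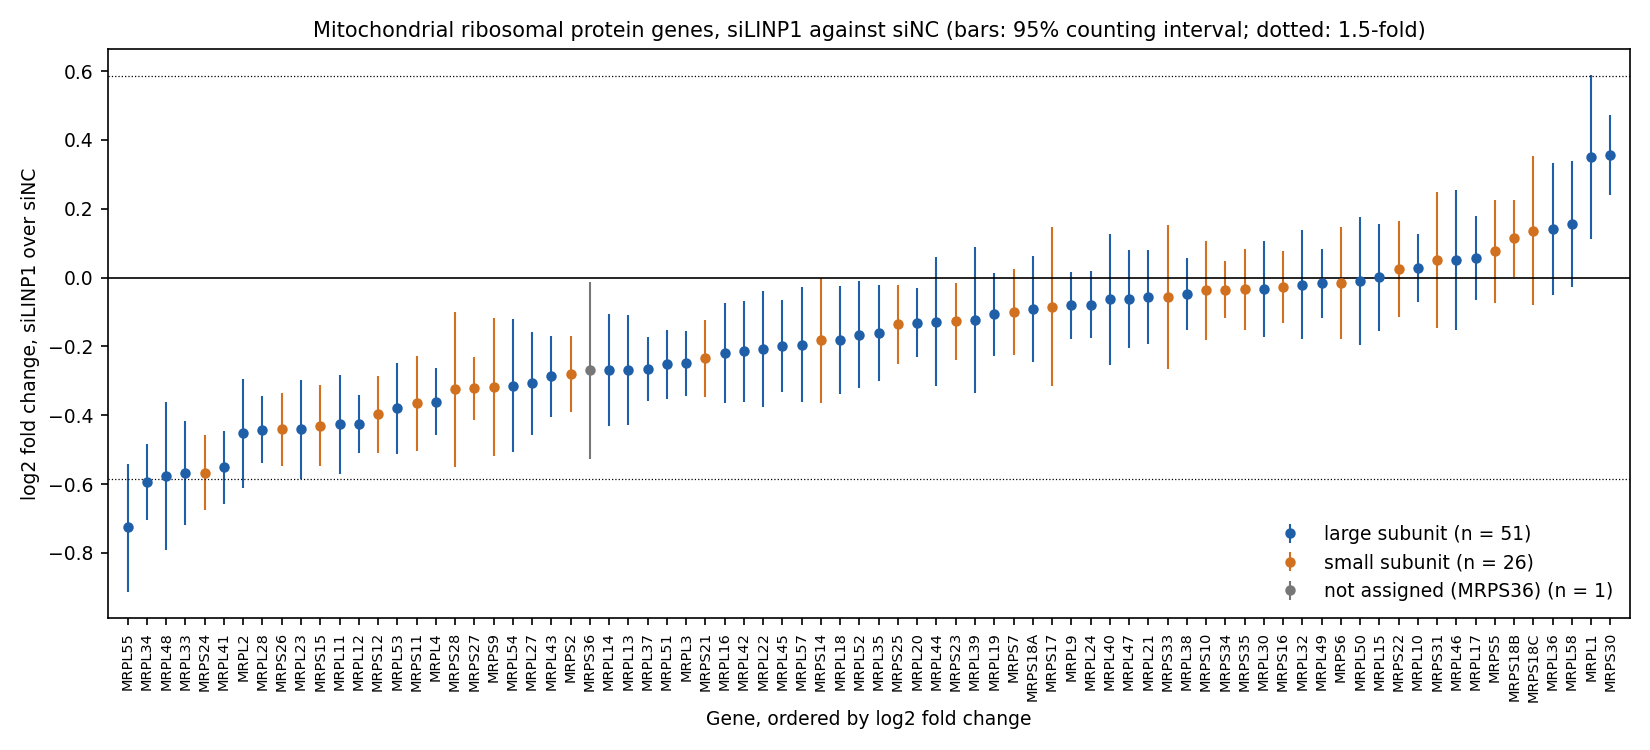
Log2 fold change of siLINP1 over siNC (vertical axis) for each of the 78 mitochondrial ribosomal protein genes, ordered from lowest to highest, with 95% counting intervals as bars, 1 library per condition and dotted lines at 1.5-fold. Points below 0 number 65 here and 49 under total-count scaling, MRPL55 and MRPL34 lie beyond the lower dotted line, and the intervals of MRPL1, MRPS30 and MRPS18B lie above 0.

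Per length, the members spanned a wide range of levels. RPKM in siNC ran from 8.64 for MRPL19 to 173.7 for MRPL41, with a median of 36.5, and in siLINP1 from 8.50 for MRPL19 to 138.9 for MRPS34, with a median of 34.6. More than 100 RPKM was reached by 9 members in siNC and 6 in siLINP1, and 19 and 18 lay under 20 RPKM. Read numbers ran from 282 to 2901 in siNC (median 958.5) and from 216 to 2188 in siLINP1 (median 735), so no member was near the limit of detection.

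The 5 highest levels in siNC were those of MRPL41 (173.7 RPKM, 166.2 to 181.6), MRPL51 (153.5, 146.8 to 160.5), MRPL12 (151.8, 146.3 to 157.4), MRPS24 (143.2, 136.8 to 149.9) and MRPS34 (134.5, 129.4 to 139.8), where the ranges are Poisson intervals. MRPL41 stood above its neighbours by more than counting error, whereas MRPL51 and MRPL12 did not differ beyond it. In siLINP1 the order was MRPS34 (138.9 RPKM), MRPL51 (136.4), MRPL41 (125.5), MRPL12 (119.6) and MRPL24 (109.6), so 4 of the 5 were shared. MRPS34 moved from the fifth place to the first with nearly equal levels in both libraries, and the 4 genes above it in siNC had lower levels in siLINP1. The siLINP1 intervals of MRPS34 (133.1 to 144.8) and MRPL51 (129.4 to 143.7) overlapped, so counting error does not separate these 2 places.

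The lowest 5 levels in siNC belonged to MRPL19 (8.64 RPKM), MRPL30 (10.7), MRPS11 (10.8), MRPL1 (11.02) and MRPL22 (11.3). In siLINP1 they belonged to MRPL19 (8.50), MRPS11 (8.88), MRPL22 (10.3), MRPS36 (10.6) and MRPL30 (11.1), and MRPL1 had left the group at 14.9 RPKM. Across the 78 genes the log2 RPKM of the libraries had a Pearson r of 0.980 and a Spearman rho of 0.976, which is a description across genes that share the same libraries and length estimates. The gene models of MRPL19 and MRPS11 were long, 7827 and 5224 bases, so these levels also depend on the length that the table assigns.

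**Figure D2:**
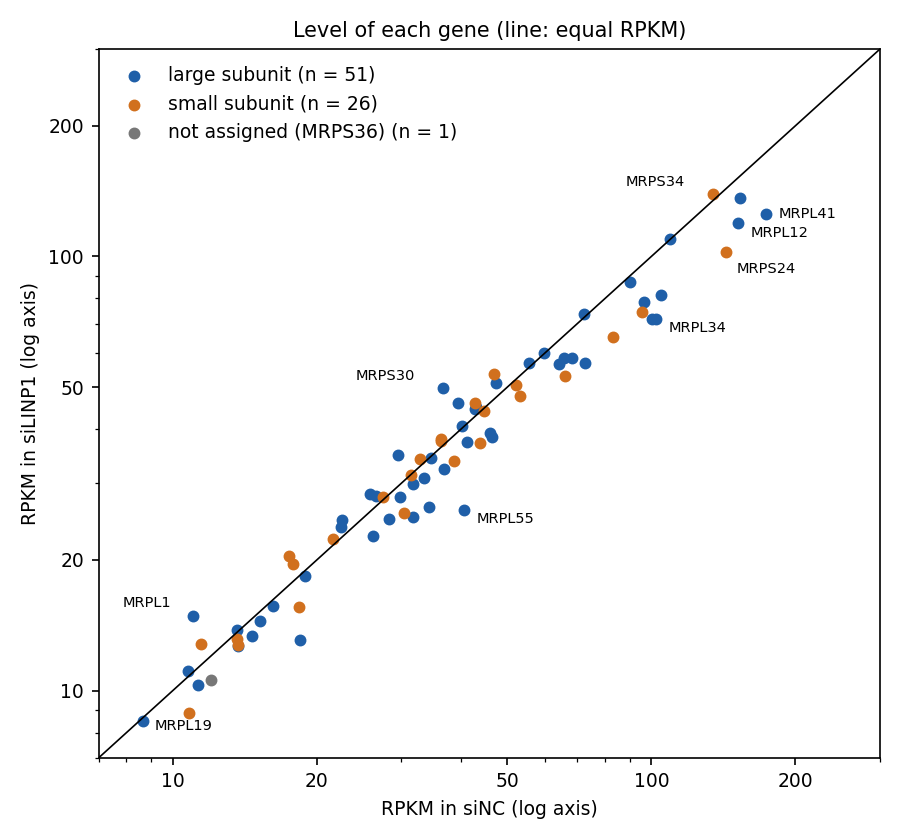
RPKM of each of the 78 genes in siNC (horizontal, log axis) and siLINP1 (vertical, log axis), coloured by ribosomal subunit, with a line of equal RPKM. RPKM was lower in siLINP1 for 49 genes and higher for 29, MRPL41, MRPS24, MRPL34 and MRPL55 lie under the line, and MRPS30 and MRPL1 lie above it.

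Among the large-subunit proteins, 51 genes here, the median log2 fold change was -0.18, with 43 lower. The interval lay below no change for 29 (56.9%) and above it for 2 (3.92%). Among all genes 25.6% lay below and 23% above, and in the members' read range 34.5% and 31.7%. The lowest of all members was MRPL55, a protein of the central protuberance, the ridge of the large subunit that faces the small one. MRPL55 had 694 reads in siNC and 363 in siLINP1, a log2 fold change of -0.73 (-0.91 to -0.54), or 40.7 and 26.05 RPKM. MRPL48, another protein of that ridge, had 491 and 285 reads (-0.58, -0.79 to -0.36). Some other ridge proteins were closer to no change, with MRPL38 at -0.05 (-0.15 to 0.06), MRPL40 at -0.06 (-0.25 to 0.13), MRPL46 at 0.05 (-0.15 to 0.25) and MRPL58 at 0.16 (-0.03 to 0.34). They were picked with the values known and are not a full list of the ridge. MRPL58, also known as ICT1, is a peptidyl-tRNA hydrolase that became a ribosomal protein, and had 500 and 482 reads. Members of this 1 structure were thus among both the lowest and the highest values.

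Other low values were found in both classes of large-subunit protein. MRPL34, which has a bacterial counterpart, had 1862 reads in siNC and 1067 in siLINP1 (-0.59, -0.70 to -0.48), and MRPL33, of the same class, had 979 and 571 (-0.57, -0.72 to -0.42). MRPL28, also bacterial in type, had 2244 and 1429 (-0.44, -0.54 to -0.35). Bacterial-type members were not all low, since MRPL32 had 720 and 614 reads (-0.02, -0.18 to 0.14) and MRPL36 had 455 and 434 (0.14, -0.05 to 0.33). MRPL41, a protein found only in mitochondrial ribosomes and the most abundant mRNA of the family per length in siNC, had 1976 and 1166 reads (-0.55, -0.66 to -0.45). MRPL53, like it without a bacterial counterpart, had 1193 and 793 (-0.38, -0.51 to -0.25).

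The stalk of the large subunit recruits the translation factors. MRPL12, its repeated subunit, had the most reads of all members in siNC, 2901, against 1868 in siLINP1 (-0.43, -0.51 to -0.34), and its neighbour MRPL11 had 1018 and 655 (-0.43, -0.57 to -0.28). The stalk base MRPL10, which anchors MRPL12, had 1779 and 1570 reads (0.03, -0.07 to 0.13), so the intervals of the anchor and of MRPL12 did not overlap. MRPL1, on the opposite stalk where spent tRNAs leave, had 282 and 311 reads, the fewest in siNC, and a value of 0.35 (0.11 to 0.59).

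Around the peptidyl transferase centre, where the peptide bond forms, MRPL2 had 856 and 541 reads (-0.45, -0.61 to -0.30), MRPL27 904 and 632 (-0.31, -0.46 to -0.16), MRPL3 2178 and 1585 (-0.25, -0.34 to -0.16) and MRPL16 916 and 681 (-0.22, -0.36 to -0.07). Proteins that line the exit tunnel of the nascent chain ran from low values to values near no change. MRPL23 stood at -0.44 (-0.58 to -0.30), MRPL4 at -0.36 (-0.46 to -0.26), MRPL22 at -0.21 (-0.38 to -0.04) and MRPL45, which tethers the ribosome to the inner membrane, at -0.20 (-0.33 to -0.06). MRPL24 was at -0.08 (-0.18 to 0.02), MRPL47 at -0.06 (-0.21 to 0.08) and MRPL17 at 0.06 (-0.07 to 0.18), with intervals that hold no change.

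The highest value with a narrow interval was that of MRPS30, which sits in the large subunit despite its name. It had 1153 reads in siNC and 1276 in siLINP1, more reads in the smaller library, and a log2 fold change of 0.36 (0.24 to 0.47), from 36.7 to 49.7 RPKM. MRPS30 and MRPL1 were the 2 members with more raw reads in siLINP1, and the other 76 had fewer. MRPS30 and MRPL55, the extremes of the family, differed by 1.08 (0.86 to 1.30) on the log2 scale, a difference that no common scaling of the libraries alters.

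The 26 small-subunit genes had a median of -0.11, with 21 lower. The interval lay below no change for 13 (50%) and above it for 1 (3.85%), against 34.5% and 31.7% of genes in the members' read range. MRPS24, near the channel where mRNA enters, had 1877 reads in siNC and 1096 in siLINP1 (-0.57, -0.68 to -0.46). MRPS12, which reaches the decoding centre, had 1645 and 1080 (-0.40, -0.51 to -0.29). MRPS26, restricted to mitochondrial ribosomes, had 1870 and 1192 (-0.44, -0.55 to -0.33), and MRPS15, bacterial in type, had 1507 and 967 (-0.43, -0.55 to -0.31). Well-read genes were also found near or above no change. MRPS34 had 2593 and 2188 reads (-0.04, -0.12 to 0.05), MRPS22 904 and 796 (0.03, -0.11 to 0.16) and MRPS5, of the mRNA entry side, 780 and 711 (0.08, -0.07 to 0.22). MRPS36, which belongs to neither subunit in current assignments, had 301 and 216 reads (-0.27, -0.53 to -0.01).

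Human cells carry 3 genes of the MRPS18 family, whose products take different places. MRPS18A, in the large subunit, had 774 and 629 reads (-0.09, -0.24 to 0.06). MRPS18B, in the small subunit, had 1354 and 1267 (0.11, 0.002 to 0.23), and MRPS18C, which holds the place of the bacterial S18 protein, had 363 and 345 (0.14, -0.08 to 0.35). MRPS18A was lower than MRPS18B by a difference of -0.20 (-0.39 to -0.01), and the differences of MRPS18A from MRPS18C (-0.23, -0.49 to 0.04) and of MRPS18B from MRPS18C (-0.02, -0.27 to 0.22) were not detectable at this depth.

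By the class in the standard nomenclature, the 46 bacterial-type proteins had a median of -0.20. Their interval lay below no change for 27 (58.7%) and above it for 1 (2.17%). The 31 proteins classed as mitochondrion-specific had a median of -0.13, with 15 (48.4%) below and 2 (6.45%) above. That class included MRPS18A and MRPS18B, although they belong to the same family as MRPS18C. In the members' read range 34.5% of genes lay below and 31.7% above. The medians of the small-subunit and the mitochondrion-restricted genes became positive, at 0.02 each, when a trend of fold change with gene length was removed, and were -0.14 and -0.12 when a trend with GC content and length was removed. The 5 proteins of the mitochondrial ribosome whose genes carry other names were spread more widely, with a median of -0.30. AURKAIP1 had 3301 and 1766 reads (-0.69, -0.78 to -0.61), CHCHD1 485 and 322 (-0.38, -0.59 to -0.18), GADD45GIP1 3557 and 2498 (-0.30, -0.37 to -0.23), the GTP-binding DAP3 3314 and 2841 (-0.01, -0.09 to 0.06) and the RNA-binding PTCD3 996 and 1033 (0.26, 0.14 to 0.39).

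The RNAs of the organelle itself differed in direction. The large and small mitochondrial ribosomal RNAs had 82145 reads in siNC and 82647 in siLINP1 for RNR2 (0.22, 0.20 to 0.23), and 19465 and 21840 for RNR1 (0.38, 0.35 to 0.40). The 13 protein genes of mitochondrial DNA had a median of -0.41 and all 13 intervals lay below no change, from ND4 with 82120 and 48273 reads (-0.56, -0.57 to -0.54) and ATP6 with 44641 and 26808 (-0.53, -0.55 to -0.50) to ND1 with 11865 and 9294 (-0.14, -0.18 to -0.10) and ND4L with 6380 and 4885 (-0.18, -0.23 to -0.12). Over all genes 25.6% of intervals lay below no change, and the median reads of the 13 genes were 48959, which makes their intervals narrow. ND genes encode subunits of complex I and ATP6 one of ATP synthase. The log2 fold change of RNR1 exceeded that of MRPL12 by 0.80 (0.71 to 0.89). Reads on mitochondrial DNA made up 2.96% of siNC and 2.64% of siLINP1, and whether ribosomal RNA was depleted to the same degree in both libraries is not given in the sources used here.

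Factors that work on the mitochondrial ribosome had medians nearer to no change. The 16 translation factors had a median of -0.06, which became 0.02 under total-count scaling and 0.08 with the length trend removed. Of their intervals 5 (31.25%) lay below no change and 3 (18.75%) above. The shares were 25.6% and 23% over all genes, and 34.5% and 31.7% in the read range of the ribosomal members. OXA1L, which inserts the new proteins into the membrane, had 2485 and 1649 reads (-0.38, -0.47 to -0.29), and TSFM, the exchange factor of the elongation factor TUFM, had 668 and 427 (-0.44, -0.61 to -0.26). TUFM itself had 7359 and 5537 (-0.20, -0.25 to -0.15). On the other side were the elongation factor GFM1 with 904 and 947 reads (0.28, 0.14 to 0.41) and the release factor homologue MTRF1L with 472 and 505 (0.31, 0.12 to 0.49).

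The 23 assembly factors had a median of -0.09, which became 0.0047 with the length trend removed. Of their intervals 7 (30.4%) lay below no change and 4 (17.4%) above, against 25.6% and 23% over all genes. In the read range of the ribosomal members 34.5% lay below and 31.7% above. MPV17L2 had 466 and 264 reads (-0.61, -0.83 to -0.39), a value beyond 1.5-fold, and MALSU1 had 543 and 354 (-0.41, -0.61 to -0.21). The GTPase GTPBP10 had 483 and 517 (0.31, 0.13 to 0.49) and NSUN4, an rRNA methyltransferase, 756 and 791 (0.27, 0.13 to 0.42). The 17 genes of mitochondrial transcription and RNA handling had a median of -0.06, but 0.03 under total-count scaling and 0.02 with the length trend removed. Of their intervals 5 (29.4%) lay below no change and 4 (23.5%) above, which is to be set beside the same shares. In this list the mitochondrial RNA polymerase POLRMT had 2724 and 1797 reads (-0.39, -0.48 to -0.30) and the RNA-processing enzyme ELAC2 had 2650 and 1843 (-0.31, -0.40 to -0.23). The transcription factor TFB2M had 827 and 868 (0.28, 0.14 to 0.42) and the poly(A) polymerase MTPAP 279 and 310 (0.36, 0.12 to 0.60).

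The 17 mitochondrial aminoacyl-tRNA synthetases had a median of -0.04, which became 0.04 under total-count scaling. Of their intervals 6 (35.3%) lay below no change and 1 (5.88%) above, against 25.6% and 23% over all genes. In the read range of the ribosomal members the shares were 34.5% and 31.7%, so the share below was close to that of genes with similar reads. SARS2, which charges serine tRNA, had 1029 and 496 reads (-0.84, -1.001 to -0.69), and VARS2, for valine, had 1085 and 568 (-0.72, -0.87 to -0.58). MARS2, for methionine, had 414 and 474 (0.40, 0.21 to 0.60), and HARS2, for histidine, had 1181 and 1091 (0.10, -0.02 to 0.22). The extremes of each of these 4 lists were named by rule, so low and high values appear in each. Among the ribosomal proteins the interval lay above no change for 3.85%, and among the synthetases for MARS2 alone.

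Beside the most similar gene groups, the shift of the mitochondrial ribosomal proteins was small. The 79 cytosolic ribosomal protein genes had a median of -0.38 and a range from -0.76 to -0.19, with all 79 intervals below no change and 3 beyond 1.5-fold (RPS24, RPL35A and RPS28). The 76 nuclear genes of the respiratory chain and ATP synthase had a median of -0.39, with 65 intervals below no change, 3 above and 12 lower by more than 1.5-fold. Over all genes 25.6% of intervals lay below no change, 23% above, and 13% were lower by that fold. Median reads were 27856 in the cytosolic group, 2950.5 in the respiratory group and 1679 among the members, so counts of intervals are not comparable between them. With the length trend removed the medians were -0.19, -0.19 and -0.04. ATP5B, the beta subunit of ATP synthase, had 13856 and 7306 reads (-0.71, -0.75 to -0.67). Median gene length was 887 bases in the cytosolic ribosomal group, 974.5 in the respiratory group and 1349 in the mitochondrial ribosomal group, against 2709 over all genes with at least 10 reads.

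**Figure D3:**
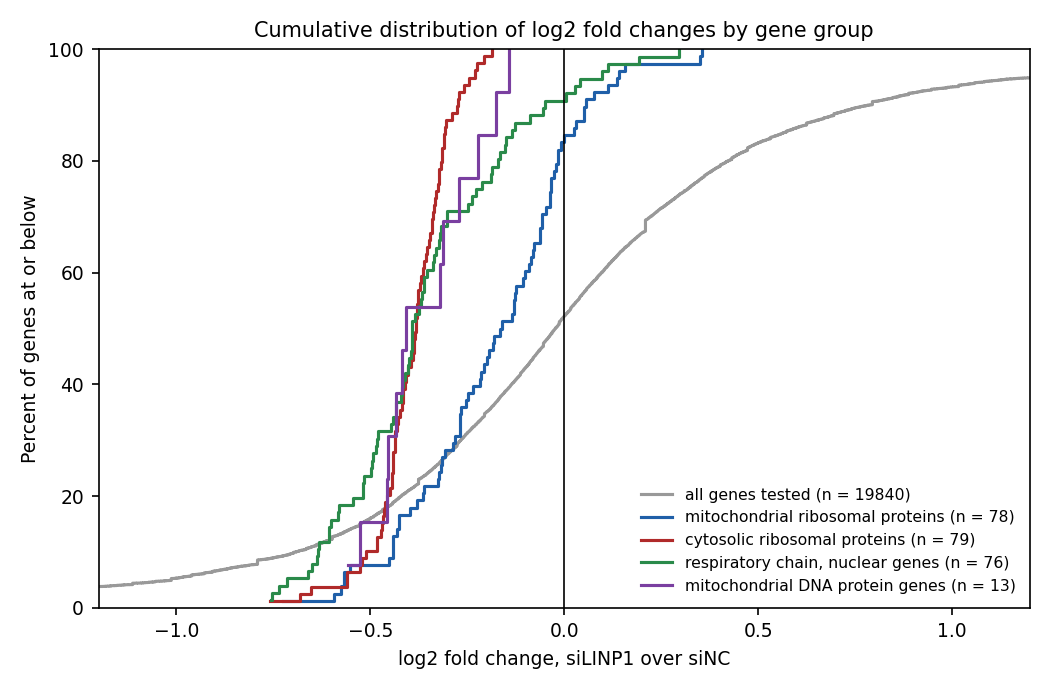
Share of genes (vertical axis, percent) at or below each log2 fold change of siLINP1 over siNC (horizontal axis) for all genes with at least 10 reads and 4 gene groups, 1 library per condition. The curve of the mitochondrial ribosomal proteins (median -0.16) lies between that of all genes (median -0.02) and those of the cytosolic ribosomal proteins (-0.38), the nuclear respiratory chain genes (-0.39) and the mitochondrial DNA protein genes (-0.41).

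Short genes were lower in siLINP1 throughout the table, and this moved with the result. Among other protein-coding genes with at least 100 reads, the median was -0.38 in 162 genes under 750 bases, -0.30 in 245 genes from 750 to 1000 bases, -0.22 in 750 genes from 1000 to 1500 and -0.14 in 1102 genes from 1500 to 2000. It was -0.06 in 2483 genes from 2000 to 3000 bases, -0.01 in 3719 genes from 3000 to 5000 and 0.07 in 3282 longer genes. Members of the family had medians of -0.32 (n = 12), -0.07 (n = 8), -0.15 (n = 26) and -0.07 (n = 14) in the 4 shorter classes, each nearer to no change than the other genes of that length. In the longer classes they had -0.19 (n = 10), -0.16 (n = 5) and -0.14 (n = 3), each below the other genes, with 16 of these 18 members lower. With the length trend removed the family median was -0.04, and with a trend of GC content and length removed it was -0.14.

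GC content of the longest transcript also moved with the values. Other genes under 40% GC had a median of 0.09 and those of at least 60% GC one of -0.21, while the members had -0.09 (n = 12) and -0.39 (n = 12) in these classes. Over the 78 members, the log2 fold change had a Pearson r of -0.41 with GC content, -0.39 with log2 RPKM in siNC, -0.20 with log2 reads and 0.19 with log2 length, as descriptions across genes that share both libraries. MRPS30 and MRPL1, the highest members, had a GC content of 34.5% and 36.9%, and MRPL34 and MRPL55 had 63.2% and 59.9%. The part of length and GC content in the values of single members was not tested.

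The 78 genes were scattered over 21 autosomes, with 8 each on chromosomes 1, 2 and 17. In GRCh37 coordinates, MRPL55 lies on the minus strand at chr1:228294380-228297013, MRPL34 on the plus strand at chr19:17416477-17417652 and MRPS30 on the plus strand at chr5:44809027-44815616. The strand setting of the counting is not given in the sources used here, so reads of overlapping genes may be split or shared. The span of another gene overlapped that of 27 members, on the opposite strand in 22. These were MRPL3, MRPL4, MRPL9, MRPL13, MRPL14, MRPL19, MRPL20, MRPL23, MRPL37, MRPL38, MRPL43, MRPL44, MRPL48, MRPL49, MRPL57, MRPS2, MRPS6, MRPS7, MRPS9, MRPS12, MRPS15, MRPS16, MRPS18C, MRPS22, MRPS24, MRPS25 and MRPS28. MRPS15 is listed only through the tRNA row TRNAN-GUU (2 and 3 reads), whose span in the table also covers the distant MRPL37. Such a span need not be a true overlap, and MRPS15 was left out of the members without overlap on that row alone.

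MRPS24 lay entirely inside the readthrough gene URGCP-MRPS24 on the same strand, which had 1295 and 780 reads (-0.52, -0.65 to -0.39), so its own value is uncertain to that extent. MRPL43 overlapped SEMA4G on the opposite strand (360 and 197 reads) and MRPS25 overlapped NR2C2 (1427 and 1271 reads). The 51 members with no overlap had a median of -0.13, with 26 intervals below no change and 3 above, and MRPL55, MRPL34 and MRPS30 were among them. A further 41 rows with MRPL or MRPS names were not protein-coding, 37 of them typed as pseudogenes in the table, and they held 418 and 396 reads, or 0.522% of the reads of the members. How reads that fit a gene and its pseudogene were assigned is not given in the sources used here.

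Many members start close to a neighbour that is read in the other direction. Whether such pairs share a promoter was not tested. Of the 78, 28 (35.9%) had a protein-coding gene that starts within 1000 bases on the opposite strand, compared with 11.6% of the 19233 protein-coding genes of the table. They formed 27 pairs, since MRPS11 and MRPL46 are each other's neighbour. The neighbour was lower in siLINP1 in 16 pairs and higher in 11, and both genes were lower in 14. The counting interval of the difference held 0 in 15 pairs, lay below 0 for the member in 6 and above in 6.

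MRPL47 and NDUFB5, a complex I subunit, start 141 bases apart and had nearly the same values, -0.06 (-0.21 to 0.08) and -0.05 (-0.19 to 0.09). MRPL51 (1957 and 1421 reads) and the condensin gene NCAPD2 also matched, at -0.25 (-0.35 to -0.15) and -0.28 (-0.34 to -0.22). In other pairs the neighbours parted. MRPL43 stood at -0.29 (-0.40 to -0.17) and TWNK, the helicase of mitochondrial DNA, whose start lies 17 bases away, at 0.17 (0.06 to 0.27). MRPS27 had -0.32 (-0.41 to -0.23) and PTCD2 0.34 (0.10 to 0.59). MRPS12 and SARS2, whose 5′ ends overlap by 189 bases, were both low, at -0.40 and -0.84, with a difference of 0.45 (0.25 to 0.64). MRPS18B (0.11) exceeded PPP1R10 (-0.41, -0.52 to -0.30) by 0.52 (0.36 to 0.68), and MRPL54 (-0.31) lay below APBA3 (0.57, 0.37 to 0.77) by a difference of -0.89 (-1.17 to -0.61).

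The pair within the family, MRPS11 and MRPL46 on chromosome 15, starts 51 bases apart in the coordinates of the count table. MRPS11, a small-subunit protein, had 1063 and 714 reads (-0.36, -0.50 to -0.23), and MRPL46, of the large subunit, had 424 and 380 (0.05, -0.15 to 0.25), a difference of -0.42 (-0.66 to -0.17). The promoters of this pair are shown with those of the lowest (MRPL55, MRPL34) and the highest (MRPS30) members so that the values can be set against sequence. The windows run from 250 bases before to 50 after the start, 5′ to 3′ on the strand of the gene, from RefSeq on GRCh38.p14: chr1:228109250-228109549 (minus strand) for MRPL55, chr19:17292323-17292622 (plus) for MRPL34, chr5:44808697-44808996 (plus) for MRPS30, chr15:88467458-88467757 (plus) for MRPS11 and chr15:88467339-88467638 (minus) for MRPL46. The RefSeq starts were not matched to those of the count table, and for MRPS11 and MRPL46 they lie further apart than 51 bases. A window may therefore lie away from the start of the counted gene. Capitals mark a match to the NRF1 motif in MRPL34 and to the YY1 motif in MRPS30 and MRPL46.
MRPL55: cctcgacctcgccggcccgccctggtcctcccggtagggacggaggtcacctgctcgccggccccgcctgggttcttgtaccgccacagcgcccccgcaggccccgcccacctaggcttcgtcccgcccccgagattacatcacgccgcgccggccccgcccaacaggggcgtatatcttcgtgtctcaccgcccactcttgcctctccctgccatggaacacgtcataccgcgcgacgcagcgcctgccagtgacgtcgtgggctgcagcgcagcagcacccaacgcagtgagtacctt
MRPL34: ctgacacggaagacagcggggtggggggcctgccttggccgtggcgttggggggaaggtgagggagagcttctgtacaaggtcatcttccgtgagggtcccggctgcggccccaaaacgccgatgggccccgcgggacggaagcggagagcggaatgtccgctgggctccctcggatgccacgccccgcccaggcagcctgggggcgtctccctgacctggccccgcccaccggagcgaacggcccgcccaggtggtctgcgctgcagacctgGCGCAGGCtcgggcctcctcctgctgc
MRPS30: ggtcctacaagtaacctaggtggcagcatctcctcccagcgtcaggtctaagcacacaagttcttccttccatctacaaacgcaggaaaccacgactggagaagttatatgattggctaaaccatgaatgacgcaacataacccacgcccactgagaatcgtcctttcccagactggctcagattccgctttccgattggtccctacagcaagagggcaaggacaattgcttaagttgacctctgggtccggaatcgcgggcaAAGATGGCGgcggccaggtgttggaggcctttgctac
MRPS11: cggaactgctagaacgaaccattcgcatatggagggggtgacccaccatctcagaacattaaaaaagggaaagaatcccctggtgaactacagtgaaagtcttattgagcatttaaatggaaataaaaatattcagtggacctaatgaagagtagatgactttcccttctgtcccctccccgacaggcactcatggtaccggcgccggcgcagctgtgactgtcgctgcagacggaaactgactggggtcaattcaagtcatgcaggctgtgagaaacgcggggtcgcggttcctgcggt
MRPL46: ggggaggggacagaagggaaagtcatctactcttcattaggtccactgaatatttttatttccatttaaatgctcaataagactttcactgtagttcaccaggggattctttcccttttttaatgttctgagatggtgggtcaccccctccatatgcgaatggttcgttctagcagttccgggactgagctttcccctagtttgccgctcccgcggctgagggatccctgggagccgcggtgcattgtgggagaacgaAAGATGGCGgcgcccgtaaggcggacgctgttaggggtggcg

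Genes of mitochondrial ribosomal proteins are known for promoters with sites of NRF1, ETS factors such as GABP, and YY1, which act on many nuclear genes for mitochondria. A promoter window was found for 69 of the 78 members by symbol, and both strands were searched, each window counting for every motif that it held. The letters GCGCANGC (NRF1) occurred in 23 windows (33.3%), against 12.5% of all 27305 windows and 16.7% of the 15842 windows of protein-coding genes. CCGGAAG (ETS) occurred in 29 (42.0%, against 10.7% and 14.2%), and AANATGGCG (YY1) in 18 (26.1%, against 3.37% and 4.81%). At least 1 of these 3 was found in 52 windows (75.4%), against 22.7% and 30.4%. TATAAA was in 2 (2.90%, against 11.95% and 9.63%) and CCAAT in 20 (29.0%, against 35.7% and 36.4%).

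The family was thus rich in the first 3 motifs as a description of its promoters. The medians of log2 fold change by motif are given as a description. Members with and without the NRF1 letters had medians of -0.13 and -0.22, with and without the ETS letters -0.13 and -0.16, and with and without the YY1 letters -0.06 and -0.19. For TATAAA they were -0.37 (2 members) and -0.13, and for CCAAT -0.23 and -0.13. Of the 18 members with the YY1 letters 13 were lower in siLINP1, and they ran from MRPS24 at -0.57 to MRPS30 at 0.36. In MRPS30 and MRPL46 the same letters AAGATGGCG begin 14 and 9 bases from the start, and no match to the 3 motifs was found in the windows of MRPL55 and MRPS11. These windows were picked for the values of their genes. MRPL34 carried GCGCAGGC at 24 bases from the RefSeq start, and whether the counted gene starts there was not checked. A match says only that these letters are in the window.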

How the data were processed

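RNA-seq of HSC-1 cells with siNC or siLINP1 was analysed, 1 library each. By their methods, the authors aligned with Tophat2 to hg19 (GRCh37) and applied HTSeq to the aligned reads, and the processing notes of the submitters also list HISAT2, HISAT and Bowtie2. Versions, annotation and strand setting are not given in the sources used here. The deposited values are raw read counts per gene and RPKM values, which the authors computed from the count, the gene length of the table and the total count (18829544 and 15383081). Left unused were 12 further per-sample columns of the table. Size factors (median of ratios) came from the whole table, genes under 10 reads summed were left out, and the log2 fold change had no pseudocount. Its 95% interval (Clopper-Pearson, on how the reads split between libraries) and the Poisson interval of an RPKM cover counting error only, and no p-value was computed.

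The members, gene lists, motifs and alternatives were chosen with earlier results of these data known. Named were members beyond 1.5-fold, the 10 lowest and 10 highest by the interval end nearer to no change, the 5 highest and lowest RPKM, the MRPS18 genes, MRPS36, MRPL12 and members that overlap another gene, and of each list the extremes by the same rule. Members of a ribosomal site or of a pair of neighbours were picked once values were known. Positions came from the count table, GC content from the GENCODE annotation of GRCh37 and promoters from RefSeq. Alternatives were total-count and edgeR TMM scaling, protein-coding genes only, minimums of 1 and 100 reads, pseudocounts of 1 and 5, members without overlap, removal of a length trend (lowess, fraction 0.3, genes with at least 100 reads) and, added after the data were examined, of a GC content and length trend. Identity between the proteins was not analysed here, and the values of 1 gene of a comparison list are not reported here. The size factors, the log2 fold changes and their intervals were tested on simulated counts, and the other steps were not. Tools were edgeR 4.0.16 in R 4.3.3, and scipy 1.17.1, pandas 2.3.3, statsmodels 0.14.6, numpy 2.4.6 and matplotlib 3.10.9 in Python 3.11.15.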

Additional observations from a re-analysis of the deposited data

How the results depend on the processing

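With 1 library per condition no library could be left out, no paired analysis was possible because the groups share no second replicate, and the spread between cultures is unknown. The members' median stayed negative under every alternative, moving to -0.081 with total-count scaling and to -0.041 with the length trend removed, and it was -0.14 with the GC content and length trend removed. The number lower by more than 1.5-fold was 1 with total-count scaling, TMM factors or protein-coding genes only, and 0 with the length trend or the GC content and length trend removed. The number of members with the interval above no change was 9 with total-count scaling, 16 without the length trend and 7 without the GC content and length trend. The number with the interval below was 26 of 78 without the length trend, and 26 of the 51 members that overlap no other gene. Without the length trend the share below was 33.3% of members and 31.3% of genes in their read range, and the share above 20.5% and 33.1%. The shares below were 38.5% and 25.9% with total-count scaling, and 47.4% and 34.5% without the GC content and length trend. Without the length trend the medians were -0.053 for the large subunit, -0.078 for bacterial-type proteins, 0.019 for the small subunit and 0.018 for mitochondrion-specific proteins, the last 2 with their sign turned (they were -0.14 and -0.12 without the GC content and length trend), and the small subunit had -0.031 with total-count scaling. The synthetases had 0.040 with total-count scaling. Medians of the mitochondrial DNA protein genes and rRNA genes were -0.17 and 0.47 without the length trend, and that of the rRNA genes was 0.38 with total-count scaling. The cytosolic ribosomal proteins had -0.30 with total-count scaling, -0.36 with TMM factors, -0.19 without the length trend and -0.35 without the GC content and length trend, and the nuclear respiratory chain genes had -0.31, -0.19 and -0.30 with the first, the third and the last of these. Without the length trend 43 members were lower and 35 higher, against 65 and 13 before. Of the members whose interval had excluded no change, 3 then turned sign (MRPL20 to 0.071, MRPS23 to 0.018 and MRPL52 to 0.0042), and 42 other members of the 78 moved by more than their counting error. Without the GC content and length trend 22 moved, and under the other scalings and pseudocounts all 78 stayed within counting error.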

Other observations

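Outside the protein-coding members, the MRPL and MRPS names with at least 10 reads were those of 6 rows. MRPS31P5 had 146 reads in siNC and 165 in siLINP1 (0.39, 0.06 to 0.72), MRPS31P4 had 51 and 54 (0.29, -0.29 to 0.87) and MRPS18AP1 had 32 and 32 (0.21, -0.54 to 0.96). MRPL45P2 had 132 and 101 reads (-0.18, -0.57 to 0.21), the antisense MRPL23-AS1 had 37 and 25 (-0.36, -1.15 to 0.41) and MRPL42P5 had 12 and 6 (-0.79, -2.49 to 0.73). Their parent genes MRPS31, MRPS18A, MRPL45, MRPL23 and MRPL42 stood at 0.05, -0.09, -0.20, -0.44 and -0.21.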
